A study of Mus musculus with 96 samples.

Results

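Chromosome 1 was described in single nuclei of KPC1199EGFP, a mouse pancreatic tumour line of C57BL\6 background that expresses EGFP. It held 288 of the 4906 genome bins in the table, and these were divided at a fixed border into the start, 12 bins, and the rest, 276 bins. Each bin had a deposited copy ratio, the library's level there over its own genome-wide level, in 96 libraries of genomic DNA. The libraries were 94 single nuclei, of which 47 were sorted by DNA content into the 2N gate, 35 into 2N+ and 12 into 4N, with 1 bulk library each of the 2N and 2N+ gates.

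All groups shared the same untreated, adherent culture at passage 9, the same strain background and the EGFP label. They differed in the DNA content gate, in input (single nuclei or bulk) and in index number. The labels do not give the alleles of the line or say whether it is 1 clone, and no second culture was measured. Nuclei of a gate are therefore cells of 1 culture and not replicate samples. No test between gates was made, and intervals below are exact 95% Clopper-Pearson intervals that cover only the counting of nuclei. The 2N libraries carried index numbers 1 to 48, the 2N+ libraries 49 to 84 and the 4N libraries 85 to 96, so gate and index position cannot be told apart.

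Tumour lines often gain or lose whole chromosomes, and they also gain pieces of a chromosome. A whole-chromosome gain raises every bin equally, whereas a gained piece raises a run of bins that ends in a step. Mouse chromosomes are telocentric, so the first bins of chromosome 1 are those nearest the centromere. Extra copies of such a piece can lie in tandem, on another chromosome or outside chromosomes, and read depth alone does not tell where.

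Copies were estimated as the ratio times a multiplier for each nucleus, the value from 1.5 to 6 that brought the autosomal ratios closest to whole numbers. The start of a nucleus was called above its rest when its median was at least 0.5 copies higher. Positions are of mm9, counted from 1. The bins of chromosome 1 were 484 kb apart at the median, but 4 stretches had no bin in the table. They were the positions before 3559438, those between the bins that begin at 9656255 and 14785729 (5129 kb apart), those between 84559456 and 87574719 (3015 kb) and those between 99891381 and 142995387 (43104 kb). All but the one of 3015 kb together made up 26.3% of the length to the last bin, and none of the 4 is analysed here. The table lists chromosome 1 in the text order of its positions, beginning with 142995387, and the bins of every other autosome begin at position 1. The start was thus read from bins that begin between 3559438 and 9656255, a span of 6.10 Mb, and a step seen at 14785729 may lie anywhere after the bin at 9656255.

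The rest of chromosome 1 stood at about 3 copies in most nuclei of the 2N and 2N+ gates and rounded to 3 in 6 of 12 4N nuclei. Its copies in the 2N gate ranged from 1.97 to 3.12 copies with a median of 2.97 (mean 2.66 ± 0.449, SD, n = 47). In the 2N+ gate it ranged from 2.03 to 3.85 with a median of 2.99 (mean 2.83 ± 0.407, SD, n = 35). In the 4N gate it ranged from 2.03 to 5.13 with a median of 3.01 (mean 3.41 ± 1.09, SD, n = 12). The rest rounded to 3 copies or more in 30 of 47 2N nuclei, or 63.8% (48.5 to 77.3%), in 28 of 35 2N+ nuclei, or 80% (63.1 to 91.6%), and in 10 of 12 4N nuclei, or 83.3% (51.6 to 97.9%). Over all 19 autosomes the same was true of 44.1%, 54.7% and 65.8% of pairs of nucleus and autosome in these gates. This share was thus higher for chromosome 1 than for the average autosome in each gate. The 4N interval, however, included the average of 65.8%, and the intervals of the 3 gates overlapped. Chromosomes 2, 3, 6, 8, 11, 17 and 19 each had a higher share than chromosome 1 in every gate. The 4N multipliers ran up to 4.7, and chromosome 4 also reached this level in 4 4N nuclei but in 0 nuclei of the other gates.

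The start had a median close to that of the rest but a wider spread. It ranged in the 2N gate from 2.07 to 5.87 copies with a median of 3.02 (mean 3.41 ± 1.02, SD, n = 47). In the 2N+ gate it ranged from 2.07 to 4.66 with a median of 3.05 (mean 3.15 ± 0.50, SD, n = 35). In the 4N gate it ranged from 2.88 to 9.59 with a median of 3.17 (mean 4.24 ± 1.99, SD, n = 12). The start was above the rest in 13 of 47 2N nuclei, or 27.7% (15.6 to 42.6%), in 5 of 35 2N+ nuclei, or 14.3% (4.81 to 30.3%), and in 4 of 12 4N nuclei, or 33.3% (9.92 to 65.1%). The corresponding share over all autosomes, each divided at the same position, was 9.85%, 7.67% and 12.7% of pairs of nucleus and autosome. The start so divided held 13 to 24 bins on the other autosomes and 12 on chromosome 1, so unlike stretches are set side by side. No nucleus had the start of chromosome 1 below its rest by 0.5 copies. The intervals of the 3 gates overlapped widely, so no order of the gates can be read from these shares.

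**Figure D1:**
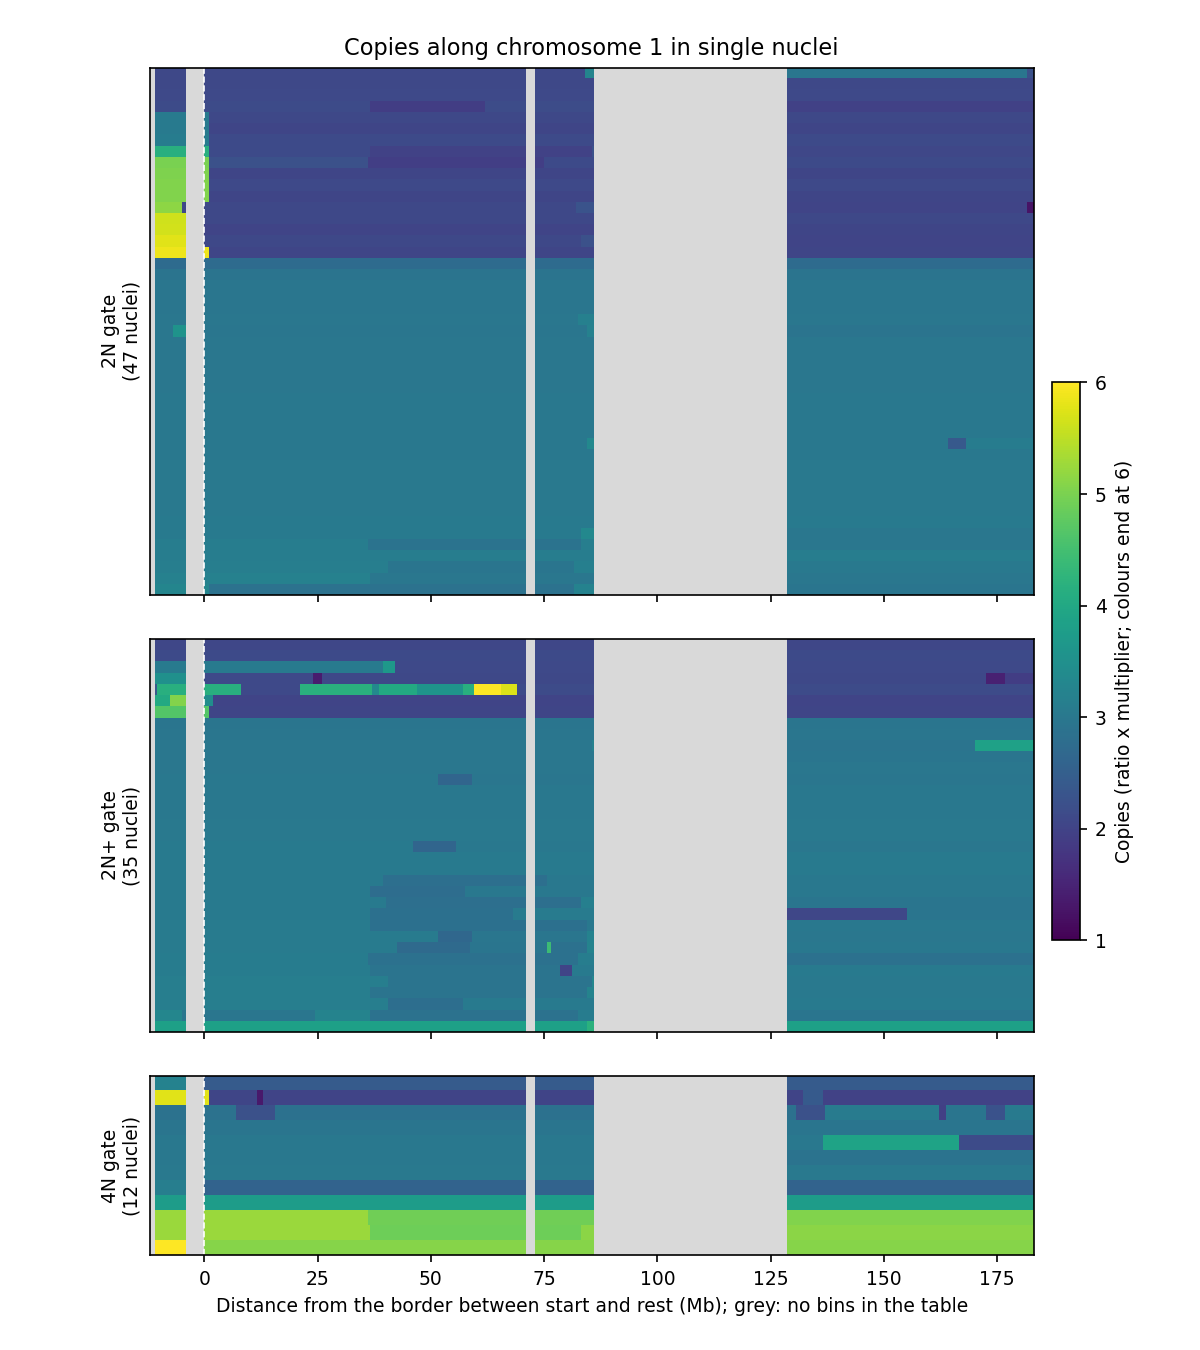
Copies in each bin of chromosome 1 for the 94 nuclei, 1 nucleus per row, sorted within each gate by the copies of the rest and then of the start; the horizontal axis is the distance from the border between start and rest in Mb, and grey marks stretches with no bins. The bright left ends belong to rows with a dark rest at 2 copies in the 2N gate, while most other rows have 1 colour from end to end.

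The state of the start went with the state of the whole chromosome. In the 2N gate, 13 of the 17 nuclei with the rest at 2 copies had the start above it, or 76.5% (50.1 to 93.2%), and 0 of the 30 nuclei with the rest at 3 did, which allows up to 11.6%. In the 2N+ gate the counts were 5 of 7, or 71.4% (29.04 to 96.3%), and 0 of 28, which allows up to 12.3%. With both gates together they were 18 of 24, or 75% (53.3 to 90.2%), against 0 of 58 (up to 6.16%). The intervals did not overlap, but they treat nuclei as independent draws. Cells of the same culture are not independent, so the lack of overlap is not a test. All 18 nuclei called above in these gates had the median of the rest at 2 copies. In 2N+ nuclei 16 and 21, however, 40.6% and 29.3% of the bins of the rest lay at least 0.5 copies from that median. By the mean over bins, the 2N+ counts were 4 of 6 with the rest at 2 and 1 of 29 with the rest at 3 or more.

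Among the 58 nuclei with the rest at 3 or more, the start did not exceed the rest by more than 0.382 copies in the 2N gate (nucleus 31) and 0.356 copies in the 2N+ gate (nucleus 14). A call on the median of 12 bins can miss a gain of fewer bins. 2N nucleus 13 is such a case, with 2.98 copies in its first 7 bins, 3.57 in the 5 bins that begin between 7380793 and 9656255, and 2.96 in the rest. With the first 5 bins left out of the start, this nucleus was the only 2N nucleus with the rest at 3 called above, 1 of 30 or 3.33%. In total copies, the start of nuclei with the rest at 3 copies was itself at 3.02 ± 0.0900 (SD, n = 30) in the 2N gate and at 3.05 ± 0.0730 (SD, n = 27) in the 2N+ gate. Hence nuclei with 3 copies of the start were of both kinds, those with the whole chromosome at 3 and those with a raised start on a chromosome at 2.

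**Figure D2:**
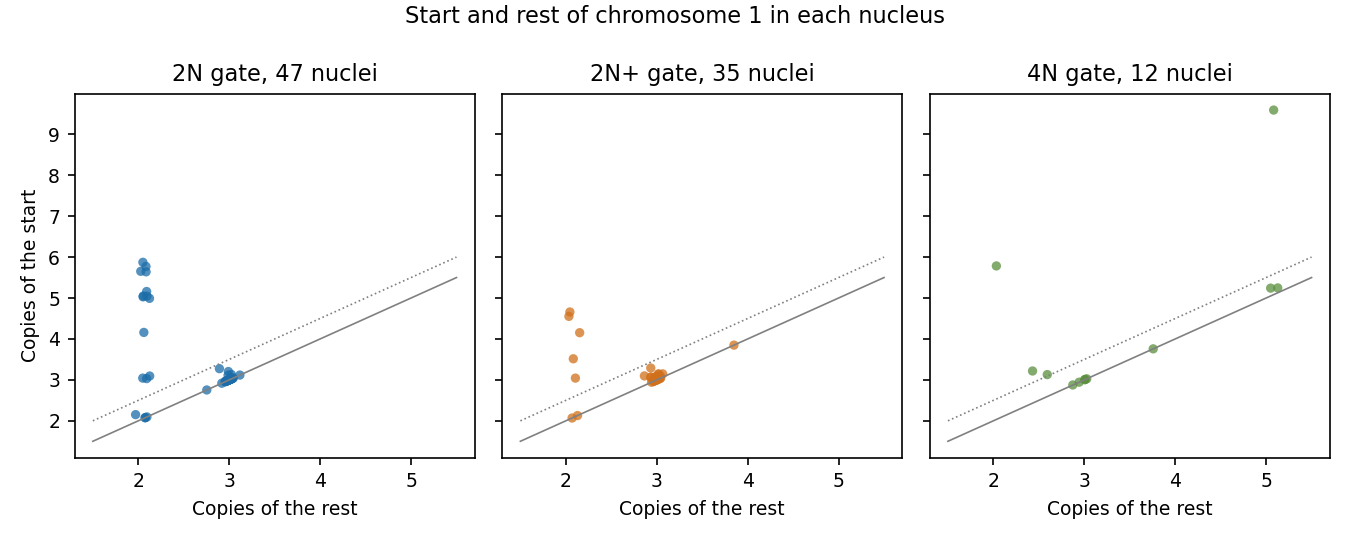
Copies of the start against copies of the rest in each nucleus, 1 panel per gate; the solid line marks equal copies and the dotted line the threshold of 0.5 copies above. Points with the rest near 3 lie along the solid line, and the column of points at 2 copies of the rest runs from 2.07 to 5.87 copies of the start in the 2N gate.

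Within groups of equal rest, the relation of the unrounded copies of start and rest varied from group to group. Among 2N nuclei with the rest at 2, Pearson's r was 0.0855 and Spearman's rho -0.12 (n = 17), and among 2N+ nuclei with the rest at 3 they were 0.0160 and 0.25 (n = 27). They were -0.36 and -0.39 in 2N+ nuclei with the rest at 2 (n = 7) and -0.48 and 0.14 in 4N nuclei with the rest at 3 (n = 6). Among 2N nuclei with the rest at 3 they were highest, at 0.46 and 0.69 (n = 30). In that last group start and rest were often 1 segment with 1 value, and the multiplier is common to both, so these figures only describe the points. No value is given over all nuclei, since the rest falls into separate groups at 2 and 3 copies.

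The 13 2N nuclei with a raised start did not have 1 level. In 4 nuclei the start stood between 5.64 and 5.87 copies, namely 5.65 in nucleus 25, 5.87 in nucleus 27, 5.77 in nucleus 30 and 5.64 in nucleus 43. In 5 nuclei it stood close to 5 copies, with 5.03 in nucleus 1, 5.05 in nuclei 2 and 5, 4.99 in nucleus 9 and 5.16 in nucleus 36. Nucleus 26 had 4.16 copies, and nuclei 19, 41 and 46 had 3.09, 3.03 and 3.04. The rest of all 13 lay between 2.03 and 2.13 copies, so the spread was in the start alone. Levels near 3 and 5 thus lay near whole numbers, and the 4 highest lay somewhat under 6. The start over the rest, which no multiplier changes, reached 2.86 in this gate.

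In the other 4 2N nuclei with the rest at 2, the start was at the same level, with 2.15 copies in nucleus 35, 2.07 in nucleus 44, 2.08 in nucleus 45 and 2.09 in nucleus 47. Nucleus 44 differed from these in its distal part, which stood at 2.96 copies from the bin at 98286358 to the one at 195711936. It was the only 2N nucleus whose rest differed by 0.5 copies or more between the sides of the widest stretch with no bins.

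The 5 2N+ nuclei with a raised start were less alike than those of the 2N gate. Nucleus 25 had 4.66 copies up to the bin at 14785729 and 2.04 after it. Nucleus 22 had 3.52 copies in the start and 2.10 from 14785729 on. In nucleus 24 the start itself had a step, from 4.04 copies in its first 6 bins to 5.06 in the 6 bins from 6814531 on, followed by 3.46 copies in 3 bins and 2.03 in all others. These 3 nuclei had a high start that ended near the border. Their multipliers were 2.15 in nucleus 22, 2.2 in nucleus 24 and 2.25 in nucleus 25, beside a median of 2.55 in the gate. Their residuals from whole copies were 0.162, 0.144 and 0.114 in the same order, beside a median of 0.077, so their copies are less certain.

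In the other 2 the raised stretch ran far beyond the start. Nucleus 21 had 3.04 copies up to the bin at 53335248, 3.66 in the next 5 bins and 2.11 from 56427719 on. Nucleus 16 had 2.41 copies in the first bin, 4.15 from there to the bin at 22239742 and then 8 more steps, with 8.15 copies in the 13 bins that begin between 73842368 and 79620758 and 2.15 copies from 83562180 on. When the rest was limited to the 12 bins next to the border, these 2 nuclei were no longer called, and 3 of 35 2N+ nuclei, or 8.57%, remained. Leaving out nuclei with more than 60 changes of level over the genome took out nuclei 22 and 24 of the called nuclei, and 3 of 32, or 9.38%, were called.

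In the 4N gate, 1 nucleus had the pattern of the 2N gate. Nucleus 10 had 5.78 copies of the start and 2.03 of the rest. It also had 83 changes of level over the genome. Without nuclei of more than 60 changes, the start was above the rest in 3 of 9 4N nuclei. Nuclei 3 and 4 had starts of 5.24 and 5.25 copies on a rest of 5.05 and 5.13, and were not called. Nucleus 5 had the highest value of all, 9.59 copies of the start with 5.08 of the rest and 3.99 of chromosome 4, which was at 2 copies in the 13 2N nuclei with a raised start. Nuclei 1 and 12 had 3.22 and 3.13 copies of the start and 2.43 and 2.59 of the rest, levels that lie between whole numbers. Their residuals from whole copies were also large, at 0.197 and 0.182, and without nuclei of residual above 0.15 the count was 2 of 9.

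Because the multiplier is least certain in this gate, the ratio to chromosome 4 of the same nucleus is given as well. The rest of chromosome 1 had a ratio to chromosome 4 of 1.29 in nucleus 1, 1.27 in nucleus 5, 1.31 in nucleus 12 and 1.03 in nucleus 10. The start had a ratio of 1.70, 2.40, 1.58 and 2.92 in the same order. The 2 4N nuclei with the start above a rest that rounded to 3 or more were nuclei 5 and 12. The exclusive pairing with 2 copies, seen by the median in the other gates, thus did not hold for all 4 nuclei here. A ratio does not show a doubling of the whole genome, so the total number of copies in 4N nuclei is known only up to such a factor.

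The high start ended within the same 2 pairs of bins in most nuclei. A step is a change of at least 0.5 copies between neighbouring bins. In all, 42 positions of chromosome 1 had a step in some nucleus, 38 of them in 1 nucleus only, and 2 were recurrent, that is, seen in 5 nuclei or more. Over all autosomes, 30 of 4617 neighbouring pairs of bins, or 0.65%, were recurrent by this rule. The 2 among the 288 bins of chromosome 1 are close to that share. Both lay at the end of the start, at neighbouring bins, and counted as 1 when steps within 2 bins were merged.

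The first was at 14785729, after the stretch with no bins, and was present in 4 2N, 2 2N+ and 3 4N nuclei. 2N nucleus 13, whose raised bins were too few for a call, is among them. The level fell in all 9, by 0.54 to 4.51 copies with a median of 1.60. The second was at 15332558 and was present in 9 2N, 1 2N+ and 1 4N nuclei. The level fell in all 11, by 0.94 to 3.82 copies with a median of 2.75. The bin at 14785729 was counted with the rest, but it lay within 0.5 copies of the start's median in 13 of the 22 nuclei with a raised start. These were the 11 that fell at the second position and 2N+ nuclei 16 and 21, whose raised stretch ran on. In nucleus 36 of the 2N gate the level fell earlier, from 5.16 to 2.09 copies at 9656255, the last bin of the start.

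Starts of every level ended at the second position. Among the 2N nuclei, the bin at 15332558 was the first low bin in nuclei 1, 2, 5, 9, 19, 26, 27, 41 and 46, whose starts ranged from 3.03 to 5.87 copies. The bin at 14785729 was the first low bin in nuclei 25, 30 and 43, whose starts ranged from 5.64 to 5.77. In 20 of the 22 nuclei all 12 bins of the start were high. Among these 22, the outer end was seen only in 2N+ nucleus 16, whose raised stretch began at 4093209, the second bin. The others of the 22 were raised from the first bin on, and no bin precedes it. In 2N nucleus 13, which was not called, the raised bins began at 7380793.

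**Figure D3:**
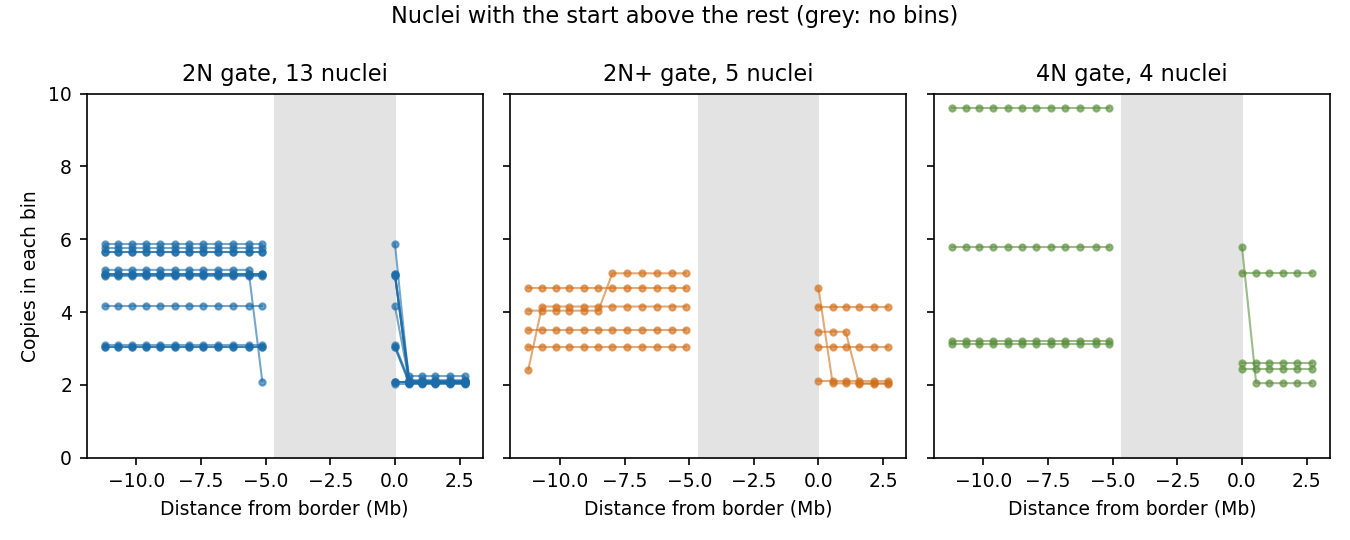
Copies in each bin against the distance from the border in Mb for the 22 nuclei with the start above the rest, 1 line per nucleus and 1 panel per gate, with the stretch that has no bins in grey. In 9 of 13 2N nuclei the first bin right of the grey stretch is still at the level of the start, and the next bin is near 2 copies.

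Most of the rest was level. In 39 of the 94 nuclei the deposited ratio did not change at all along chromosome 1, in 24 2N, 12 2N+ and 3 4N nuclei. There were 62 steps in 31 nuclei, and 21 of these nuclei had one at the end of the start. Steps elsewhere were seen in 4 2N, 8 2N+ and 3 4N nuclei. Only 3 nuclei had a rest that differed by 0.5 copies or more between the sides of the stretch from 99891381 to 142995387. They were 2N nucleus 44, from 2.07 to 2.96 copies, 2N+ nucleus 16, from 4.04 to 2.15, and 4N nucleus 11, from 3.004 to 3.90. In the other 91 nuclei the sides differed by less than 0.5 copies.

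Single nuclei carried other partial changes. 2N+ nucleus 2 had 2.06 copies in 53 bins from 142995387 on, with 3.07 before and 2.94 after. 2N+ nucleus 33 had 3.86 copies in its last 26 bins. 4N nucleus 11 had 3.90 copies in 62 bins from 150928389 on and 2.15 in its last 33 bins. 4N nucleus 9 had 8 steps, with levels from 1.95 to 3.09 copies, but it also had 112 changes of level over the whole genome. 2N nuclei 36 and 44 both fell at 196180394, in the last 2 bins of the chromosome, to 1.27 and 2.24 copies.

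Smaller changes recurred at 4 further positions, and all of them were under 0.5 copies but for the fall of 2N+ nucleus 2 at 142995387. The share of such positions over all autosomes was not computed, so 4 cannot be called many or few. A fall at 50885676 was present in 10 nuclei, with a median size of 0.219 copies, and rises at 97736081 and 98807033 were present in 5 and 7 nuclei, with median sizes of 0.240 and 0.307. At 142995387, across the widest stretch with no bins, 28 nuclei changed, 26 of them down, by 0.217 copies at the median. Such sizes are well under 1 copy of a single nucleus, and what they stand for was not tested.

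The other autosomes show how common a raised first part is. With the same dividing position, the start was above the rest on chromosome 5 in 47 of 47 2N, 35 of 35 2N+ and 12 of 12 4N nuclei, and on chromosome 16 in 25 of 47, 5 of 35 and 7 of 12. Next came chromosomes 2, 6 and 12 with 4 nuclei each, chromosome 2 in 1, 1 and 2 nuclei and chromosomes 6 and 12 in 1, 2 and 1. Chromosome 1 thus followed chromosomes 5 and 16 in the 2N and 4N gates, and had the same count as chromosome 16 in the 2N+ gate. Differences in size were large, with a median start minus rest of 4.04 copies on chromosome 5 and 0.94 on chromosome 16 in the 2N gate.

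On the other autosomes the count by state of the rest was carried by chromosomes 5 and 16. In the 2N and 2N+ gates it was found in 99 of 773 pairs of nucleus and autosome with the rest at 2, or 12.8%, and in 21 of 621 with the rest at 3, or 3.38%. Without chromosome 5 the counts were 36 of 710, or 5.07%, and 2 of 602, or 0.332%. Without chromosome 16 as well they were 6 of 654, or 0.917%, and 2 of 580, or 0.345%. Pairs of 1 nucleus share its multiplier and its lineage and are not independent. Leaving out chromosome 16 lowered the count with the rest at 2 from 36 to 6 and left that with the rest at 3 at 2. Raised starts on a rest at 2 and not at 3 were thus not particular to chromosome 1, while chromosome 5 had a raised start in every nucleus. The 75% of chromosome 1 at 2 copies stands beside these pooled shares and was not compared with them by a test.

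**Figure D4:**
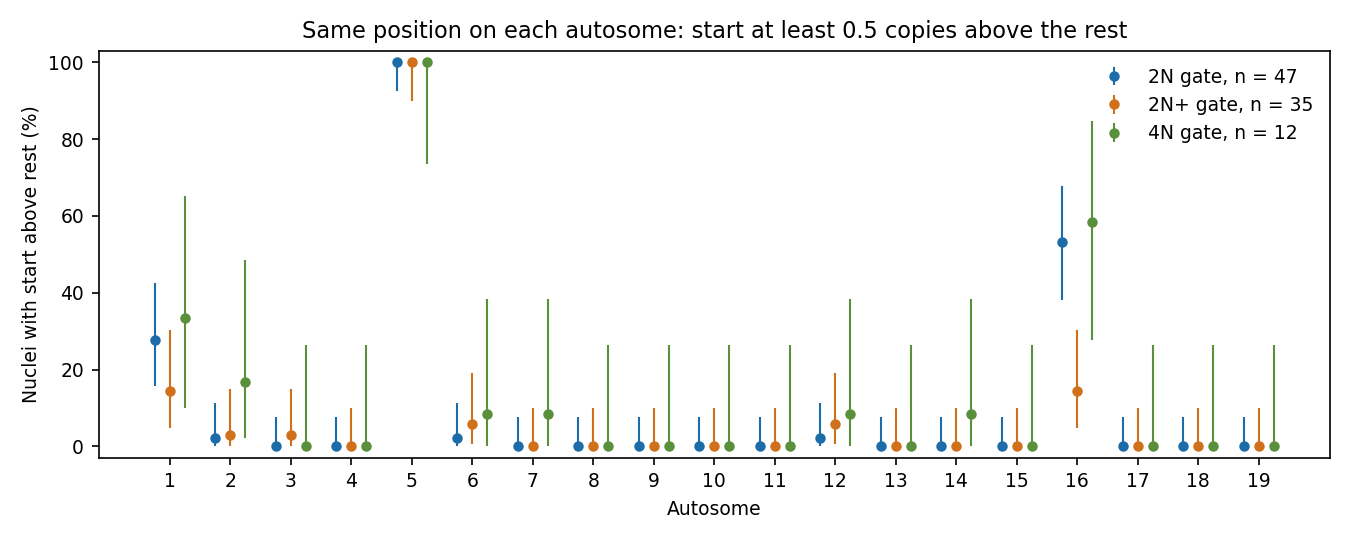
Percent of nuclei with the start at least 0.5 copies above the rest on each autosome, divided at the same position, with exact 95% intervals, for the 47 2N, 35 2N+ and 12 4N nuclei. Chromosome 5 is at 100% in every gate, chromosomes 1 and 16 follow, and the other autosomes lie near 0 in the 2N and 2N+ gates.

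The 2N nuclei with a raised start also shared copy numbers elsewhere in the genome, which were looked at after the values of chromosome 1 were known. Chromosomes 2 and 18 were both at 2 copies in 13 of 13 of these nuclei and in 2 of the 34 other 2N nuclei. Taken singly, chromosome 2 was at 2 copies in 5 of those 34 and chromosome 18 in 8. Chromosome 15 was at 2 copies in 13 of 13 and in 22 of 34, so it set them apart less. All 13 also had 3 copies of chromosomes 3 and 8 and 1 copy of X, but so did most others, with 29, 28 and 30 of 34 in that order. None of the 4 2N nuclei with the rest at 2 and a level start had both chromosomes 2 and 18 at 2 copies.

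In the 2N+ gate, both were at 2 copies in 3 of the 5 nuclei with a raised start and in 0 of the 30 others. The 3 were nuclei 22, 24 and 25, those whose high start ended near the border, while nuclei 16 and 21 had 3.88 and 3.04 copies of chromosome 2. In the 4N gate it was nucleus 10 alone, 1 of 4 against 0 of 8. Copies of different chromosomes in 1 nucleus come from 1 fit and 1 cell lineage, so these counts describe nuclei that resemble each other and are not separate evidence.

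The bulk libraries gave ratios, not copies. In the 2N bulk library the start had a ratio of 1.58, beside 1.45 ± 0.486 (SD, n = 47) over nuclei, and the rest 1.05, beside 1.11 ± 0.157. Start over rest was 1.51 in bulk and 1.30 in the summed nuclei. The bulk profile had 4 segments, at 1.48 for the first 6 bins, 1.69 for the next 6, 1.38 for the bin at 14785729 and 1.05 for the other 275. Both falls thus lay at the recurrent positions of the single nuclei, and the rise at 6814531 was at the bin where 2N+ nucleus 24 also rose.

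In the 2N+ bulk library the start had a ratio of 1.19, beside 1.25 ± 0.25 (SD, n = 35) over nuclei, and the rest 1.13, beside 1.12 ± 0.139. Its first 90 bins, up to 54458318, were 1 segment at 1.19, so no fall at the border was resolved. Start over rest was 1.05 in this library and 1.11 in the summed nuclei. With 1 bulk library per gate, a difference between bulk and nuclei has no replicate error.

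Genes could be given only by their order on the chromosome, since the gene table is of GRCm38.p6 and the bins are of mm9, so none is placed in a bin here. Of 1183 protein-coding genes in order from the centromere, Xkr4 is number 1, Sox17, a transcription factor of endoderm formation, number 3, and Mrpl15, a protein of the mitochondrial ribosome, number 4. Rb1cc1, needed to begin autophagy, is number 11 and Mybl1, a transcription factor of male meiosis, number 19. They are followed by Cops5, a subunit of the COP9 signalosome, at 25, Ncoa2, a coactivator of nuclear receptors, at 34, and Terf1, which binds telomeres, at 43. Further along are Bcl2, an inhibitor of apoptosis, at 579, Mdm4, an inhibitor of p53, at 686, Nr5a2, a regulator of acinar cells of the pancreas, at 750, Parp1, a DNA repair enzyme, at 1081, and Prox1, a transcription factor of the developing pancreas and lymphatics, at 1145. No expression was analysed here, so nothing is known from these data of how any gene responds to the copies.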

How the data were processed

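Single nuclei and bulk samples were amplified with the SeqXE kit and sequenced, per the labels' protocols. The submitters' processing notes name Bowtie 1.0 and mm9. How bins and segments were made is not stated there or in the labels. Values were deposited as linear copy ratios, constant over runs of bins, with library means from 0.994 to 1.09. They are not counts, so depth is unknown and no counting error of reads can be given.

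Columns were assigned to gates by title, and no 2 libraries were identical. The multiplier was searched in steps of 0.05, the residual is the root mean squared distance of autosomal copies from whole numbers, and region copies are medians over bins. A whole number means within 0.2 copies. The search was tested on simulated data. Values were computed with Python 3.11.15, numpy 2.4.6, pandas 2.3.3 and scipy 1.17.1.

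The bins, border and gene lists were chosen with earlier results of these data known. The text names the start, the rest, every recurrent step, nuclei with 5 copies or more in the start, and the other autosomes most often raised, 5 and 16, with 2, 6 and 12 tied after them. Other nuclei were named after their values were seen. Of 34 listed genes, 34 matched, after 21 entries placed before 3 Mb were left out of the order. Some listed genes are not reported here.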

Additional observations from a re-analysis of the deposited data

How the results depend on the processing

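No paired analysis was possible because each nucleus carries a number of its own that links it to no other, and the shares come from no test. Each of 19 results was recomputed under up to 18 settings, 219 values in all. Of these, 217 kept within the spread of the main setting or within 1.5 times a count, which is a loose limit. The other 2 both concern the number of recurrent steps, which went from 2 to 1 with steps within 2 bins merged and from 2 to 1 with steps across stretches with no bins left out. The latter setting, the border bin counted with the start, and copies as 2 times the ratio to chromosome 4 were chosen after seeing the data. The 2N+ share of raised starts counted as kept at 8.57% against 14.3%, whose exact interval was 4.81 to 30.3%. The 4N median of the rest did so at 2.61 copies against 3.01, with an SD of 1.09 over nuclei. A kept value therefore does not show that a result is insensitive to the processing.

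The share of nuclei with a raised start ranged from 27.7 to 29.8% in the 2N gate, from 8.57 to 17.1% in 2N+ and from 22.2 to 33.3% in 4N. Among nuclei with the rest at 3 copies or more it ranged from 0 to 3.33% in 2N and from 0 to 3.57% in 2N+, so the 0 depends on the threshold, on the bins of the start and on the mean against the median. The main limits are the unknown depth, smoothing by segments, the stretches with no bins, and 12 nuclei in the 4N gate.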
